A study of Mus musculus with 12 samples.

Results

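The p53 targets and apoptosis regulators described here are 34 mouse genes of the 26855 genes in the deposited table. They were chosen by name, with earlier results of these data known: Trp53 with 20 regulators and targets of p53, 7 further members of the BCL2 family, and 6 caspases and apoptosome proteins. All 34 were found in the table, and 33 had enough counts to be tested. The cells were alveolar macrophages, which are phagocytes of the air spaces. They were recovered from the bronchoalveolar lavage fluid of mice 14 days after bleomycin. The drug breaks DNA and is used to produce lung fibrosis. The 12 libraries carry the titles UPBIG, UPSMALL and DOWN, with 4 libraries each. The study filtered the lavage cells by size into fractions enriched for or poor in border-associated alveolar macrophages, then sorted cells by side scatter and by BODIPY, a stain for neutral lipid. The labels do not say which fraction and gate each title stands for, so the titles are used as group names. Every group came from mice given bleomycin. Untreated lungs were not analysed here, so no value below measures a response to the drug itself. The sources used here do not give strain, sex, age or the number of mice. Nothing states that the 4 libraries of a group came from separate mice, so a p-value measures only the spread between these libraries, which may be technical.

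The protein p53 is a transcription factor that accumulates after DNA damage and other stress. Mdm2 and Mdm4 hold it in check, and Mdm2 is itself a p53 target, which closes a feedback loop. Its targets include genes that halt the cell cycle, genes that lower oxidative stress or repair DNA, and genes that promote apoptosis. The BCL2 family sets the threshold of the mitochondrial route to apoptosis: BCL2, BCL-XL (gene Bcl2l1) and MCL1 protect the outer membrane, BAX and BAK1 open it, and the BH3-only proteins push the balance towards opening. Released cytochrome c then assembles APAF1 and caspase 9 into the apoptosome. Macrophages of the lung are long-lived cells that depend on survival signals from their surroundings.

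Library totals ranged from 17109669 to 23282621 counts. The closest pair of libraries within a group differed by far more than counting noise, at a chi-square of 19.4 per degree of freedom. All 13 alveolar macrophage markers were detected in every group, and their summed level ranged from 61290 to 126700 CPM (counts scaled to a common library size). The lowest of those sums belonged to UPSMALL replicate 4, which stood apart from the other UPSMALL libraries at 101300 to 121100 CPM. Most of each sum was Lyz2, at 45520 CPM in that library, while Chil3 (12470 CPM), Mrc1 (544 CPM) and Marco (62.4 CPM) were higher there than in any other library. The sums therefore say little of the other markers. Of the 13, 6 were called higher in UPBIG than in DOWN and 1 lower, beside 9.03% and 8.48% of all tested genes. Fabp4 had means of 897 CPM in UPBIG and 151 in DOWN, whereas Car4 had 17.9 and 88.0. Markers of other cell types differed between the groups. The summed T and NK cell markers were 3.36 to 16.5 CPM in UPBIG, 2.42 to 9.34 in UPSMALL and 32.1 to 123 in DOWN, and the summed dendritic cell markers were 3.86 to 7.41, 6.99 to 35.5 and 44.6 to 119 CPM in the same order. The summed monocyte markers were 306 to 439, 1162 to 1828 and 2098 to 2314 CPM. Whether the groups differed in the share of macrophages that came from monocytes was not tested. Between UPBIG and DOWN, 10 of 10 tested T and NK cell markers and 7 of 10 dendritic cell markers were called lower in UPBIG. So were 4 of 6 monocyte markers, where 8.48% of all tested genes were called lower. Several T and NK cell and dendritic cell markers had enough counts to be tested only through DOWN. Trac, for example, had 19, 26 and 484 counts in UPBIG, UPSMALL and DOWN. The calls of such markers therefore support nothing by themselves. Gzma, which was not tested, had means of 1.84 CPM in UPBIG, from replicate 3 alone, and 0.746 in DOWN. Of the T and NK cell markers only Ncr1 was at 0 in all UPBIG libraries. Of the 4 tested neutrophil markers, S100a8 alone was called between UPBIG and DOWN, where 17.5% of all genes were called. Its means were 375 CPM in UPBIG and 128 in DOWN, whereas S100a9 had means of 2.55 and 7.25 CPM. Camp was at 0 in all UPBIG libraries. In these bulk samples, fewer cells of a type and less RNA per cell cannot be told apart.

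The main difference lay between UPBIG and DOWN. In UPBIG, 10 members were higher: the arrest and stress targets Cdkn1a, Ccng1, Gdf15, Zmat3 and Phlda3, the apoptosis targets Bax, Pmaip1 and Aen, and Bcl2l1 and Casp8. Another 4 were lower in UPBIG: the p53 inhibitor Mdm4, the death receptor Fas, and the survival genes Bcl2 and Mcl1. The calls are edgeR quasi-likelihood tests at a Benjamini-Hochberg adjusted p under 0.05 over all 12625 genes tested. They cover 14 of 33 members, or 42.4%, where 17.5% of all tested genes were called. Since the genes were chosen with earlier results of these data known, the larger share is a description and supports nothing by itself. Without UPSMALL replicate 4 the counts were again 10 higher and 4 lower. Leaving out each library in turn gave 8 to 10 higher and 2 to 4 lower. Among all genes, 9.03% were called higher and 8.48% lower. The libraries of the 2 groups did not overlap for 10 members that were higher and 3 that were lower, where 11.0% and 10.3% of all genes were so separated (21.4% in all). The median log2 fold change was 0.12 over the 33 members and -0.03 over all tested genes. With libraries scaled by their totals alone, the median of all genes moved to -0.36 and that of the members to -0.22. Under that scaling 4 members were called higher (Cdkn1a, Gdf15, Zmat3 and Phlda3) and 5 lower (Mdm4, Fas, Bcl2, Mcl1 and Diablo).

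**Figure D1:**
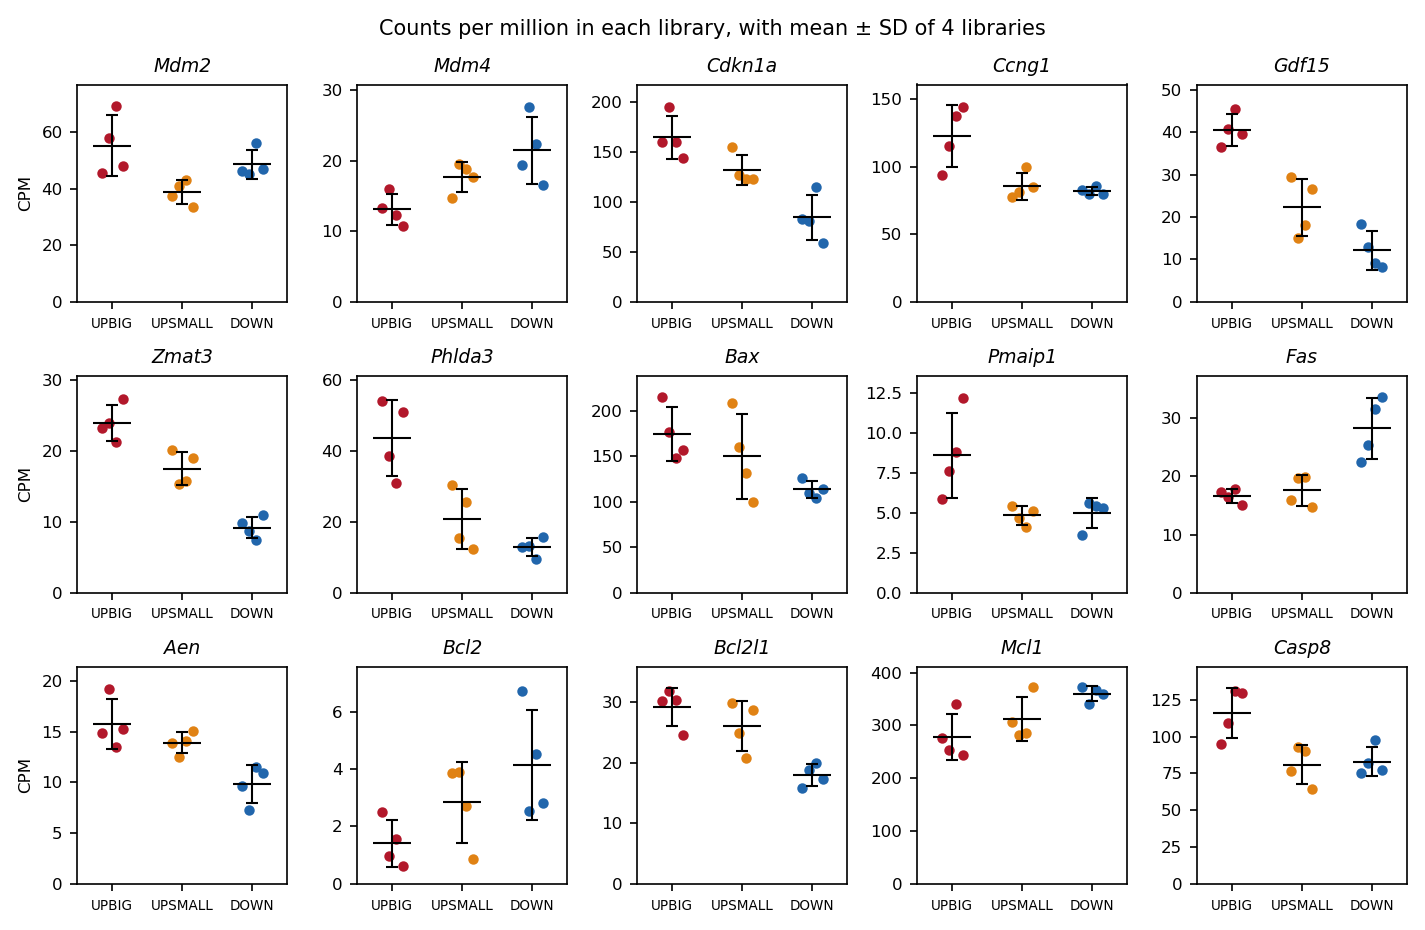
CPM of the 15 members called in at least 1 pairwise comparison, in each of the 12 libraries, with a point for each library and the mean and SD of 4 libraries as bar and whisker. In UPBIG, Phlda3, Gdf15, Zmat3 and Cdkn1a sit above every DOWN library, and Fas, Mdm4 and Bcl2 sit below every DOWN library.

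The transcript of p53 itself was called in no comparison. Trp53 was 20.1 ± 1.5 CPM in UPBIG, 16.2 ± 3.65 in UPSMALL and 19.2 ± 2.84 in DOWN (SD, n = 4 libraries each). The log2 fold change of UPBIG against DOWN was 0.06 ± 0.18 (SE), with an edgeR adjusted p of 0.859, and the interval of 2 SE ran from -0.29 to 0.41. With library totals alone that fold change took the other sign, at -0.25. A level of mRNA says nothing of p53 protein, whose amount is set mainly by its degradation.

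Mdm4, which binds p53 and blocks its activity, measured 13.3, 16.1, 12.3 and 10.8 CPM in the UPBIG libraries. It measured 14.7, 19.6, 18.8 and 17.8 CPM in UPSMALL and 19.4, 27.7, 22.3 and 16.6 CPM in DOWN. All UPBIG libraries lay below all DOWN libraries, and UPSMALL overlapped both. The log2 fold change of UPBIG against DOWN was -0.71 ± 0.18, with an edgeR adjusted p of 0.0104. Without DOWN replicate 2, the highest library, the adjusted p was 0.0581. Mdm2, the ubiquitin ligase that sends p53 to degradation, had a different order. It measured 45.5, 58.1, 69.4 and 48.0 CPM in UPBIG, 37.5, 41.1, 43.1 and 33.7 in UPSMALL and 46.4, 45.1, 56.4 and 46.9 in DOWN. UPSMALL was the lowest group and overlapped neither of the others, whereas UPBIG and DOWN overlapped. The difference passed the test between UPBIG and UPSMALL (log2 fold change 0.51 ± 0.14, adjusted p = 0.0402) and not between UPBIG and DOWN (0.18 ± 0.14, adjusted p = 0.428, and -0.13 with library totals alone). The call against UPSMALL was lost in 8 of 20 alternatives, among them library totals alone (log2 fold change 0.24, adjusted p = 0.265) and the fit without UPBIG replicate 3 (0.38, adjusted p = 0.145).

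Of the 8 arrest and stress targets, 5 were called higher in UPBIG than in DOWN, or 62.5% beside 9.03% of all genes, and none lower. Their median log2 fold change was 0.77, and 0.45 with library totals alone. Phlda3 (chromosome 1, 135766119 to 135769136), whose product competes with AKT for membrane lipid and restrains it, showed the largest fold change of any called member that was higher. It measured 54.1, 38.5, 30.9 and 50.8 CPM in UPBIG, 30.3, 15.3, 25.6 and 12.4 in UPSMALL and 12.9, 13.1, 9.57 and 15.7 in DOWN. UPBIG lay wholly above both other groups, which overlapped each other. Against DOWN the log2 fold change was 1.76 ± 0.26, with an edgeR adjusted p of 0.000185.

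Gdf15 (chromosome 8, 70629393 to 70632456) encodes a secreted stress cytokine of the TGF-beta superfamily. Its level was 36.4, 40.9, 45.5 and 39.6 CPM in UPBIG, 29.4, 15.1, 18.1 and 26.6 in UPSMALL and 18.4, 12.8, 9.12 and 8.29 in DOWN. Every UPBIG library exceeded every library of the other groups, and 1 DOWN library lay above the lowest UPSMALL libraries. UPBIG exceeded DOWN by 1.74 ± 0.24 on the log2 scale, adjusted p = 6.21e-05. Zmat3 (chromosome 3, 32334792 to 32366014) encodes a zinc finger protein that binds RNA. It was 23.2, 23.9, 21.2 and 27.3 CPM in UPBIG, 20.1, 15.3, 15.7 and 18.9 in UPSMALL and 9.77, 8.66, 7.4 and 10.9 in DOWN. The 3 groups did not overlap, and each group had a narrow spread. Against DOWN the log2 fold change was 1.38 ± 0.17, adjusted p = 1.36e-05, the smallest adjusted p of any member.

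Cdkn1a (chromosome 17, 29090976 to 29100727) encodes the cyclin-dependent kinase inhibitor p21, the classic p53 target that halts the cell cycle. It measured 160.3, 195, 160.3 and 144 CPM in UPBIG, 155, 127, 123 and 123 in UPSMALL and 83.3, 81.4, 115 and 59.2 in DOWN. DOWN was the lowest group and overlapped neither of the others. UPBIG exceeded DOWN by 0.96 ± 0.16 on the log2 scale (adjusted p = 0.000290). Ccng1, cyclin G1, which recruits a phosphatase to Mdm2, was 93.7, 115, 137 and 144 CPM in UPBIG. It was 77.1, 80.8, 99.8 and 84.5 CPM in UPSMALL and 83.0, 79.5, 85.9 and 80.0 in DOWN. UPBIG lay above DOWN in every library but overlapped UPSMALL, and the log2 fold change against DOWN was 0.58 ± 0.13, adjusted p = 0.00399. The Ccng1 call was lost with library totals alone, at an adjusted p of 0.166. Sesn1, a sestrin that acts in antioxidant defence and restrains mTORC1, had means of 12.2, 16.6 and 13.4 CPM in UPBIG, UPSMALL and DOWN. Trp53inp1, a p53 cofactor also linked to autophagy, had means of 26.1, 19.3 and 23.5 CPM, and Plk2, a polo-like kinase, had means of 4.62, 7.48 and 6.51 CPM. None of these 3 passed the test in any comparison, and the Plk2 libraries of DOWN alone spread from 0.942 to 10.1 CPM.

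**Figure D2:**
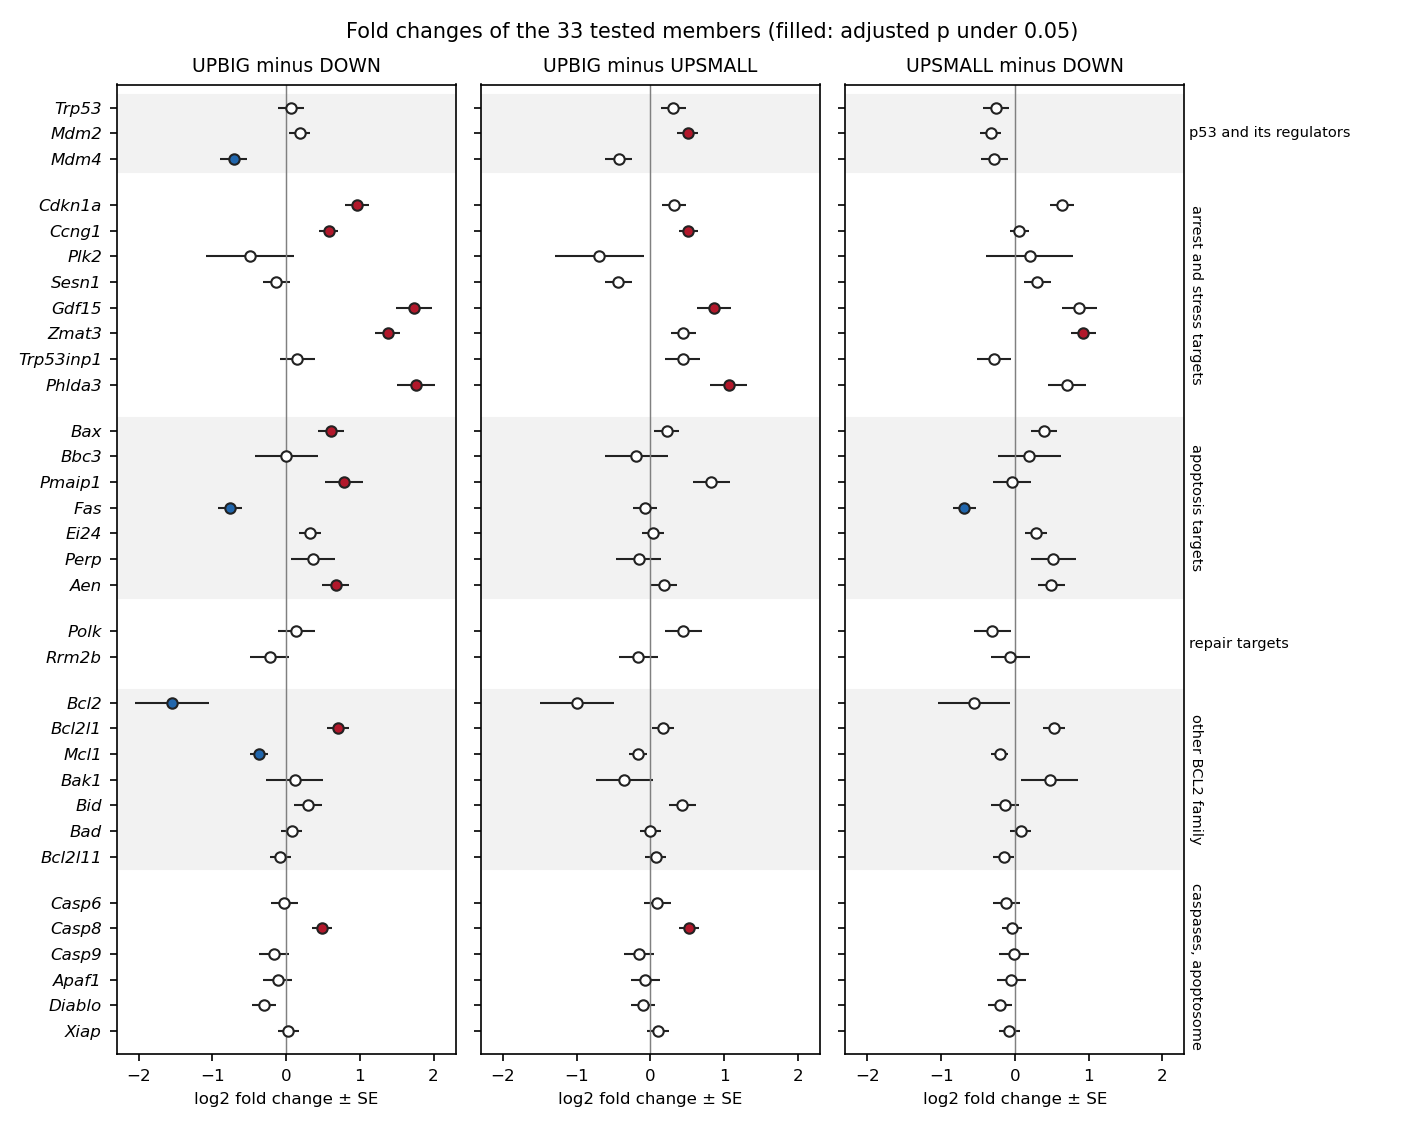
Log2 fold change and SE of the 33 tested members in the 3 comparisons, ordered by role, with filled points for those called by edgeR at an adjusted p under 0.05. Filled points are most frequent for UPBIG against DOWN (14 of 33) and rarest for UPSMALL against DOWN (2 of 33).

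The promoters of some of these genes carry the letters that p53 binds, and 4 of the 5 called genes with such letters are shown; Aen is left out because its match lies after the first base of the gene. RefSeq promoter windows on GRCm38.p6, the assembly also called mm10, reach from 250 bases before to 50 bases after each annotated start. A window was found for 29 members, and none was matched for Zmat3, Trp53inp1, Pmaip1, Perp and Rrm2b. The scan looked for the p53 response element decamer, a 10-base palindromic motif with degenerate letters that reads the same on both strands. A p53 site is a pair of such decamers, here at most 13 bases apart. The decamer was present in 9 members (Aen, Bax, Ccng1, Cdkn1a, Ei24, Mdm2, Polk, Sesn1 and Trp53), or 31% of the matched members, and in 9.55% of the 27025 genes in the promoter table. Some genes have several windows. Counted by window, the decamer was present in 10 of the 43 member windows and in 8.36% of all 32851 windows. A pair was present in 1 member window, of Cdkn1a, and in 0.0731% of all windows. Capitals mark the decamers. Each sequence is the part of its window that lies before both the RefSeq start and the first base of the gene in GENCODE vM21, so the Cdkn1a and Ccng1 sequences have 247 and 225 bases and the others 250.
Cdkn1a, chr17:29090729-29090975, plus strand: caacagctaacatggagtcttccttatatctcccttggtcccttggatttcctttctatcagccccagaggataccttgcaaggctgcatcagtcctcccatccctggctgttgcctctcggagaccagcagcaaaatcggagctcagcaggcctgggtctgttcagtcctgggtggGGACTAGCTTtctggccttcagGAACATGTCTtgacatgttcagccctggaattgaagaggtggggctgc
Ccng1, chr11:40755312-40755536, minus strand: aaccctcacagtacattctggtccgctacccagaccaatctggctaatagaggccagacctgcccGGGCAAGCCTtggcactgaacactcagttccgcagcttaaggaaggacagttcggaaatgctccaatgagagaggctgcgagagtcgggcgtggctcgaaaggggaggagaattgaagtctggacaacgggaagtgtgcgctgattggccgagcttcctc
Bax, chr7:45466899-45467148, minus strand: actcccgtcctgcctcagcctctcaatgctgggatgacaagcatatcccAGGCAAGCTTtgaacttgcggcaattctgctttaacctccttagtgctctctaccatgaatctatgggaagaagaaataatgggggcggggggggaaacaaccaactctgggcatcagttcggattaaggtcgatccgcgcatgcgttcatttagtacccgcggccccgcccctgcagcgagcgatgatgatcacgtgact
Mdm2, chr10:117710759-117711008, minus strand: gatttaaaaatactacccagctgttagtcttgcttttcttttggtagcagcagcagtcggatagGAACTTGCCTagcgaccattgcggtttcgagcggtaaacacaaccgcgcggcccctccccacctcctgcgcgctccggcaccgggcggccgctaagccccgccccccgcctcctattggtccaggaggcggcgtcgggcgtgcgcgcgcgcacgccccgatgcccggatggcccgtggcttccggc

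In the Cdkn1a sequence the decamers have 12 bases between them. The 10 bases that follow the second, tgacatgttc, differ from the motif at 1 position. This window belongs to the upstream of the annotated Cdkn1a starts. The window of the other start held no decamer, and counts per gene do not tell which start was used. Of the 8 members with a window that were called higher in UPBIG than in DOWN, 4 had a decamer (Aen, Bax, Ccng1 and Cdkn1a). Phlda3 and Gdf15, the members with the largest fold changes upwards, had none in their windows. A match describes letters and not binding, and p53 sites are often found outside such short windows.

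Of the 8 targets that promote apoptosis, 3 of the 7 tested were called higher in UPBIG than in DOWN and Fas was called lower, or 57.1% beside 17.5% of all genes. Bax, the pore-forming effector, was 215, 176, 148 and 157 CPM in UPBIG, 208, 160.1, 131 and 99.3 in UPSMALL and 126, 110.1, 104 and 114 in DOWN. UPBIG lay above every DOWN library, and UPSMALL spread across both. The difference was 0.61 ± 0.18 on the log2 scale, with an edgeR adjusted p of 0.0207. Pmaip1, which encodes the BH3-only protein NOXA, an antagonist of MCL1, was 5.85, 7.59, 8.78 and 12.1 CPM in UPBIG, 5.41, 4.69, 4.09 and 5.13 in UPSMALL and 3.59, 5.58, 5.42 and 5.32 in DOWN. UPBIG lay above all other libraries, by a narrow margin in replicate 1. The log2 fold change against DOWN was 0.79 ± 0.26, adjusted p = 0.0399. Aen, a nuclease that acts on DNA in apoptotic cells, was 14.9, 19.2, 13.5 and 15.3 CPM in UPBIG, 13.9, 12.5, 14.1 and 15 in UPSMALL and 9.64, 7.31, 11.6 and 10.9 in DOWN. DOWN lay below both other groups, and the log2 fold change of UPBIG against DOWN was 0.67 ± 0.18, adjusted p = 0.0148.

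These 3 calls depended on the scaling and on single libraries. With library totals alone the adjusted p was 0.183 for Bax, 0.204 for Pmaip1 and 0.187 for Aen. The Bax call was also lost without UPBIG replicate 1 (0.0747) and without DOWN replicate 3 (0.0578), and the Aen call without UPBIG replicate 2 (0.0634). Pmaip1 failed to pass in 10 of 20 alternatives, 7 of them leaving out a single library (UPBIG replicate 2, 3 or 4 or any DOWN library), with UPBIG replicate 4 giving the highest adjusted p among those (0.161). The annotation places 192 bases of a Bax exon on the same strand as Gm45808, which reached at most 0.130 CPM.

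Fas (chromosome 19, 34290666 to 34327772), the death receptor bound by FAS ligand, was the p53 target among the members that was called lower. It was 17.2, 16.4, 17.9 and 15.1 CPM in UPBIG, 16.0, 19.8, 19.8 and 14.7 in UPSMALL and 22.5, 25.4, 31.5 and 33.6 in DOWN. DOWN was the highest group and overlapped neither of the others. UPBIG was lower than DOWN by a log2 fold change of -0.76 ± 0.16, adjusted p = 0.00287. Fas is also expressed by T cells, whose marker sums, given above, were highest in DOWN. In the DOWN libraries, in the order of the Fas values, the T and NK cell sums were 119, 32.1, 123 and 54.4 CPM. The part of such cells in the Fas difference was not tested. Bbc3, which encodes the BH3-only protein PUMA, stayed low in all libraries, at 1.17 to 2.71 CPM, with a log2 fold change of 0.00 ± 0.43. Ei24, an endoplasmic reticulum protein, had means of 27.9, 27.2 and 22.3 CPM in UPBIG, UPSMALL and DOWN. Perp, a membrane protein of desmosomes, had means of 30.4, 33.8 and 23.6 CPM, and neither gene passed the test in any comparison. Eda2r, a receptor of the TNF receptor superfamily, had too few counts to be tested, with 0.0586 to 1.20 CPM in UPBIG, 0 to 0.0999 in UPSMALL and 0 to 0.577 in DOWN. The repair targets Polk, a translesion DNA polymerase, and Rrm2b, a ribonucleotide reductase subunit, ranged from 2.97 to 7.63 and from 3.82 to 7.96 CPM over all libraries and passed in no comparison.

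In the BCL2 family, the survival genes moved in different directions. Bcl2l1, the gene of BCL-XL, was 30.2, 31.9, 30.3 and 24.7 CPM in UPBIG, 29.8, 24.9, 20.8 and 28.8 in UPSMALL and 15.8, 18.8, 19.9 and 17.3 in DOWN. DOWN lay below every other library. UPBIG exceeded DOWN by 0.71 ± 0.15 on the log2 scale, with an edgeR adjusted p of 0.00277, which became 0.0831 with library totals alone. Mcl1, a short-lived survival protein that macrophages and granulocytes use, was 276, 253, 341 and 244 CPM in UPBIG, 306, 282, 286 and 372 in UPSMALL and 372, 340.0, 367 and 359 in DOWN. One UPBIG library lay within the range of DOWN, so the groups overlapped by that library. UPBIG was lower than DOWN by -0.37 ± 0.12 on the log2 scale, adjusted p = 0.0399, and the call was lost in 8 of 20 alternatives, each of which left out a single library (UPBIG replicate 1, 2 or 4, UPSMALL replicate 1 or any DOWN library), with 0.125 the highest value, without UPBIG replicate 4. Bcl2 was 2.49, 0.956, 1.58 and 0.613 CPM in UPBIG, 3.88, 3.89, 2.71 and 0.880 in UPSMALL and 6.70, 2.55, 4.51 and 2.83 in DOWN. Its UPBIG and DOWN libraries were separated only narrowly, at 2.49 against 2.55 CPM.

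The Bcl2 log2 fold change of -1.55 ± 0.51 had an adjusted p of 0.0401, and the call was lost in 6 of the 19 alternatives in which it was tested, each leaving out a single library (UPBIG replicate 2, 3 or 4, UPSMALL replicate 3 or DOWN replicate 1 or 3), with 0.151 the highest value, without DOWN replicate 1. Lymphocytes express Bcl2, and DOWN replicates 1 and 3, with the highest Bcl2, also had the highest T and NK cell marker sums, at 119 and 123 CPM. Other libraries had a different order. UPSMALL replicates 1 and 2 had Bcl2 at 3.88 and 3.89 CPM with sums of 3.45 and 9.34. DOWN replicates 2 and 4 had less Bcl2, at 2.55 and 2.83 CPM, with sums of 32.1 and 54.4. The part of lymphocytes in the Bcl2 level was not tested. In the annotation, Bcl2 also shares 558 exon bases with D630008O14Rik on the opposite strand, which reached at most 0.807 CPM. The remaining BCL2 family members passed no test, and 3 of them share exon bases with an expressed gene on the opposite strand, whose reads cannot be told apart. These are Bid with Bcl2l13 (9.22 to 13.2 CPM), Bad with Gpr137 (3.75 to 10.4 CPM) and Bak1 with Ggnbp1 (0.418 to 6.16 CPM). Bid, the BH3-only protein that caspase 8 cleaves, had means of 13.1, 9.69 and 10.6 CPM in UPBIG, UPSMALL and DOWN. Its UPBIG libraries, at 12.8 to 13.3 CPM, lay above all others, but at a log2 fold change of 0.30 ± 0.19 the difference from DOWN had an adjusted p of 0.315. Bad, a BH3-only protein controlled by phosphorylation, had means of 54.5, 54.5 and 51.6 CPM, and Bcl2l11, the gene of BIM, had means of 42.1, 40.1 and 44.5. Bak1, the other pore-forming effector, had means of 3.08, 3.93 and 2.83 CPM. Over the 10 BCL2 family members, counting Bax, Bbc3 and Pmaip1, 3 were called higher and 2 lower, or 5 of 10 beside 17.5% of all genes, with a median log2 fold change of 0.10 that became -0.24 with library totals alone.

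Among the 6 caspases and apoptosome proteins, Casp8 was the only gene that was called. For UPBIG against DOWN this was 16.7% of the list beside 17.5% of all genes. Against UPSMALL it was again 16.7%, beside 5.70% of all genes. With library totals alone, 1 other gene, Diablo, was called instead, lower in UPBIG than in DOWN. Casp8 encodes the initiator caspase of death receptors, which also blocks necroptosis. It was 95.2, 109, 131 and 129.5 CPM in UPBIG, 76.5, 92.9, 90.0 and 64.6 in UPSMALL and 75.2, 82.2, 97.6 and 77.2 in DOWN. UPBIG lay above every UPSMALL library, while 1 DOWN library exceeded the lowest UPBIG library. The log2 fold change of UPBIG against DOWN was 0.48 ± 0.14, adjusted p = 0.0195. That call was lost in 4 of 20 alternatives: with library totals alone (0.349), without UPBIG replicate 3 (0.0603), without UPBIG replicate 4 (0.0636) and without DOWN replicate 1 (0.0542).

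Apaf1, the scaffold, had means of 15.4, 16.1 and 16.6 CPM in UPBIG, UPSMALL and DOWN, and Casp9, its initiator caspase, had means of 19.8, 22.0 and 22.1. The executioner Casp6 had means of 24.9, 23.4 and 25.3 CPM. Xiap, which inhibits caspases, had means of 45.1, 42.0 and 44.2 CPM, and Diablo, which relieves that inhibition, had means of 39.6, 42.6 and 48.8. None of these 5 passed the test in any comparison, although Diablo was called lower with library totals alone, as given above. Over the 33 tested members, 18 were called in no pairwise comparison, and the largest absolute log2 fold change among them was 0.69, for Plk2 between UPBIG and UPSMALL. Errors were widest for Plk2, Bcl2 and Bbc3, with SEs from 0.43 to 0.60 for UPBIG against DOWN.

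Against UPSMALL, UPBIG was higher for 5 members and lower for none. The 5 were Mdm2, Ccng1, Gdf15, Phlda3 and Casp8, or 15.2% of the 33, where 5.70% of all genes were called. Among all genes, 3.22% were called higher and 2.49% lower. The groups did not overlap for 7 members that were higher and 1 that was lower, beside 6.49% and 5.34% of all genes (11.8% in all). Phlda3 exceeded UPSMALL by 1.06 ± 0.26 on the log2 scale (edgeR adjusted p = 0.0204), Gdf15 by 0.87 ± 0.23 (0.0353), Ccng1 by 0.52 ± 0.13 (0.0216) and Casp8 by 0.52 ± 0.14 (0.0303). These 4 were also called against DOWN; the 2 comparisons share the UPBIG libraries. Zmat3 lay above every UPSMALL library but missed the threshold, at 0.45 ± 0.17 and an adjusted p of 0.137. Pmaip1 did the same at 0.83 ± 0.26 and 0.0660, and Cdkn1a had 0.32 ± 0.16 and 0.297. In the other direction, Sesn1 in UPBIG (11.0 to 14.7 CPM) lay below every UPSMALL library (15.6 to 18.5 CPM) and was not called. Mdm4 had -0.43 ± 0.18 and an adjusted p of 0.209. Pmaip1 passed with DESeq2 (0.0290), limma-voom (0.0450) and without UPBIG replicate 1 (0.0314), and Zmat3 with limma-voom (0.0452). The count of 5 depended on single libraries, on the tool and on the scaling. It was 6 with DESeq2 and 7 with limma-voom. It was 1 with library totals alone (Phlda3), with Mdm4, Sesn1 and Mcl1 then called lower, and 1 without UPBIG replicate 3, UPBIG replicate 4 or UPSMALL replicate 2. It was 2 without UPBIG replicate 2 or UPSMALL replicate 1, and 3 without UPSMALL replicate 3 or replicate 4. The count of 0 lower was also 0 with DESeq2 and limma-voom, and 2 members were lower at an unadjusted edgeR p under 0.05.

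Between UPSMALL and DOWN, 2 members were called, or 6.06%, where 1.14% of all genes were called (0.594% higher and 0.547% lower). The groups did not overlap for 4 members that were higher and 2 that were lower, beside 3.87% and 4.38% of all genes (8.25% in all). Zmat3 was higher in UPSMALL by 0.93 ± 0.17 on the log2 scale (edgeR adjusted p = 0.0103). Fas was lower by -0.68 ± 0.16 (0.0465), a call lost in 12 of 20 alternatives, 10 of which left out a single library (any UPSMALL library, UPBIG replicate 2, 3 or 4, or DOWN replicate 2, 3 or 4), with 0.158 the highest value, without UPSMALL replicate 1. Cdkn1a came close, at 0.64 ± 0.16 and an adjusted p of 0.0551, with its groups not overlapping. Gdf15 had 0.87 ± 0.24 (0.0874), Bcl2l1 0.54 ± 0.15 (0.0921) and Phlda3 0.70 ± 0.26 (0.237). Cdkn1a passed in 7 alternatives, among them DESeq2 (0.00906) and the fit without DOWN replicate 3 (0.0141). Gdf15 passed with DESeq2 (0.0186), with no low-count filter (0.0001285), without UPSMALL replicate 2 (0.0487) and without DOWN replicate 1 (0.0226). Bcl2l1 passed with DESeq2 (0.03315) and Phlda3 with no low-count filter (0.00442). For 12 of the 14 members called between UPBIG and DOWN, the UPSMALL mean lay between the other means, as it did for 1988 of all 2210 called genes (90.0%). A joint test for any difference among the 3 groups called 11 members, where 13.8% of all genes were called, and the members called in a pairwise comparison alone were Bax, Bcl2, Mcl1 and Mdm2.

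Levels of different genes can be set side by side per length, as CPM per kb of annotated exon. On that scale Mcl1 and Bax were the highest members, each with 92.6 as the mean of all 12 libraries. Their order changed between groups: Bax was 110.5 ± 18.9 and Mcl1 81.4 ± 12.8 in UPBIG, while Bax was 72.2 ± 5.89 and Mcl1 105 ± 4.15 in DOWN (SD, n = 4). Cdkn1a followed at 35.8, Casp8 at 32.3, Ccng1 at 27.5 and Bad at 20.9, again as means of 12. Neighbours in this order often differed by less than their SDs, such as Cdkn1a and Casp8 with SDs of 11.0 and 7.22, and the order differed between groups. In DOWN Casp8 (28.7) lay above Cdkn1a (23.8), and in UPBIG Phlda3 (28) and Gdf15 (21.9) lay above Bad (21.3). The lowest were Bbc3 at 0.867, Rrm2b at 0.590, Bcl2 at 0.306 and Eda2r at 0.0362 CPM per kb. Among the survival genes the order was thus Mcl1, Bcl2l1 at 5.33 and Bcl2, and Mdm2 at 9.37 exceeded Mdm4 at 1.18.

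**Figure D3:**
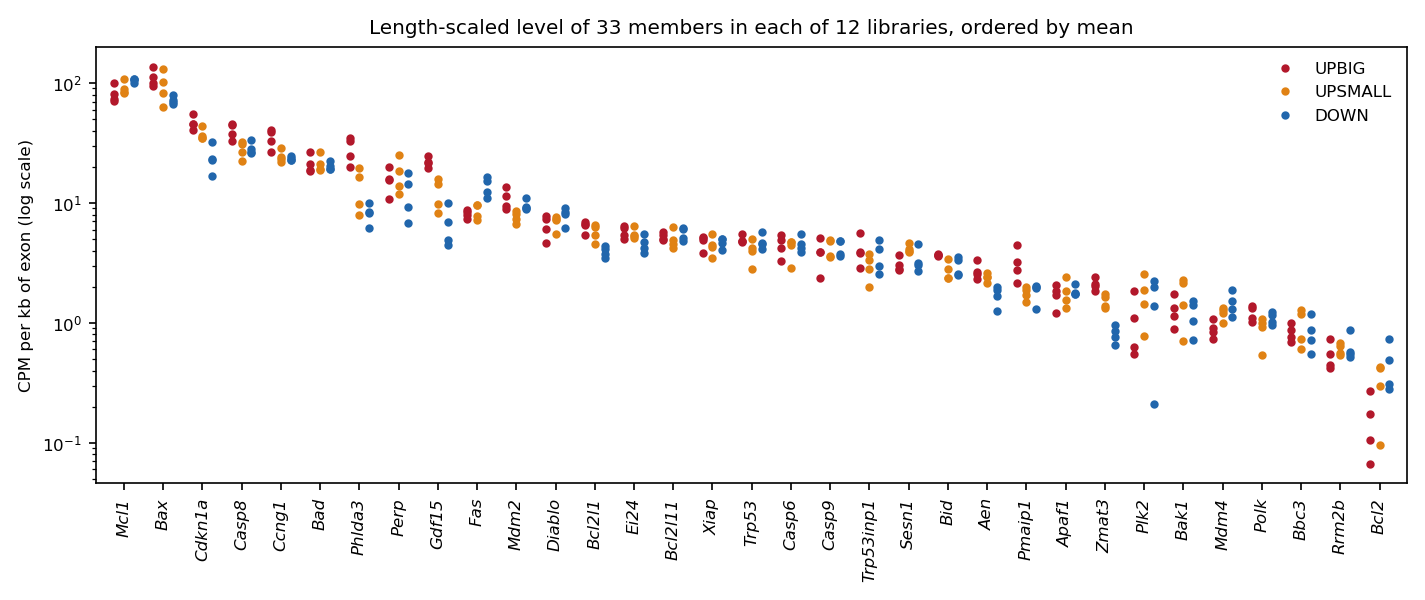
CPM per kb of annotated exon, on a log axis, for 33 members in each of the 12 libraries, ordered by the mean of all libraries and coloured by group; Eda2r is left out because several libraries are at 0. Mcl1 and Bax lead at a mean of 92.6 each, and Bcl2 is last at 0.306.

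Ratios of counts per kb within a library do not depend on how libraries are scaled. The 4 ratios plotted were chosen after their values were seen, and are given as descriptions with no test. Bcl2l1 to Bcl2, Bax to Mcl1 and Casp8 to Casp9 were also computed and are not plotted. UPBIG lay above DOWN in every library for Bcl2l1 to Bcl2 and for Bax to Mcl1. Casp8 to Casp9 overlapped, at 8.82 to 14.0 in UPBIG and 5.51 to 9.35 in DOWN. The ratio of Bcl2l1 to Mcl1 was 0.0663 to 0.0941 in UPBIG, 0.0541 to 0.0728 in UPSMALL and 0.0317 to 0.0412 in DOWN, so DOWN was separate from both other groups. Mdm2 to Mdm4 was 9.95 to 16.4 in UPBIG, 5.53 to 7.42 in UPSMALL and 4.74 to 8.21 in DOWN, so UPBIG was separate and the others overlapped. Cdkn1a to Trp53 was 7.33 to 11.5 in UPBIG, 6.90 to 15.4 in UPSMALL and 3.68 to 5.60 in DOWN. Phlda3 to Trp53 was 4.19 to 7.16, 2.00 to 6.89 and 1.06 to 2.22 in that order, and UPSMALL replicate 1 gave the highest value of its group in both. A ratio shows that 2 transcripts changed unequally and not which of them changed.

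**Figure D4:**
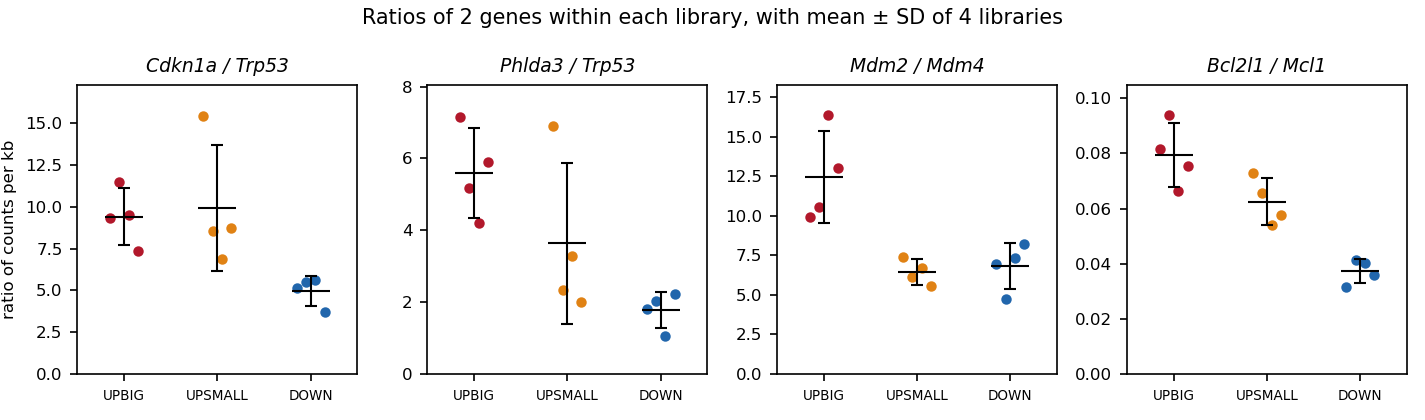
Ratio of counts per kb of annotated exon in each library for 4 pairs of members, with a point for each library and the mean and SD of 4 libraries per group. The DOWN libraries lie lowest for Bcl2l1 to Mcl1 and Cdkn1a to Trp53, and the UPBIG libraries lie highest for Mdm2 to Mdm4.

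Other genes of the pathway were taken from 4 lists. Of 24 tested p53 targets outside the 34 members, 3 were higher in UPBIG than in DOWN and 1 was lower, or 16.7% beside 17.5% of all genes, and their median log2 fold change was 0.11 (-0.21 with library totals alone). Gadd45a, a growth arrest gene that answers DNA damage, was 12.5, 11.3, 12.9 and 14.0 CPM in UPBIG and 5.15, 4.81, 4.36 and 3.81 in DOWN, or 1.48 ± 0.24 higher on the log2 scale (edgeR adjusted p = 0.000220). Ephx1, a microsomal epoxide hydrolase, had 1.22 ± 0.27 (0.00562), and Abhd4, a lipid hydrolase, had 0.49 ± 0.16 (0.0341, lost with library totals alone and without any 1 of 4 libraries). Pidd1, a death domain protein that activates caspase 2, was lower by -1.84 ± 0.49 (0.0123), at 0.410 to 0.954 CPM in UPBIG and 2.02 to 3.14 in DOWN. The other p53 targets therefore gave calls in both directions, and 20 of the 24 passed no test against DOWN.

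Of the 19 genes that sense and signal DNA damage, 1 was called higher and 1 lower between UPBIG and DOWN, or 10.5% beside 17.5% of all genes. Hipk2, a kinase that phosphorylates p53, had a log2 fold change of 1.60 ± 0.34 (edgeR adjusted p = 0.00406). Prkdc, the catalytic subunit of the DNA end-joining kinase, had -0.89 ± 0.28 (0.0306, lost in 6 of 20 alternatives). Chek1, the checkpoint kinase of replication stress, was called only between UPSMALL and DOWN, at 2.97 ± 0.69 (0.0406) and levels of 1.10 to 2.68 against 0.0432 to 0.471 CPM, and that call was lost in 10 of 19 alternatives. Blmh, the hydrolase that inactivates bleomycin, had means of 22.6, 23.2 and 19.3 CPM in UPBIG, UPSMALL and DOWN and was called in no comparison.

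Of the 31 tested apoptosis genes outside the members, 1 was called higher and 5 lower, or 19.4% beside 17.5% of all genes. Their median log2 fold change was -0.20, and -0.53 with library totals alone. Cycs, cytochrome c, was higher in UPBIG, at 439, 437, 525 and 467 CPM against 363, 369.5, 429.7 and 332 in DOWN. Its log2 fold change of 0.32 ± 0.11 (edgeR adjusted p = 0.0405) became 0.00 with library totals alone, and the call was lost in 8 of 20 alternatives. Of the lower genes, Bcl2a1a, a survival gene that NF-kB induces, had -0.61 ± 0.12 (0.00189), and its near-identical copy Bcl2a1b had -0.53 ± 0.15 (0.0202). Bcl2a1d, a further copy named after its values were seen, had -0.42 ± 0.12 (0.0233), and the calls of Bcl2a1b and Bcl2a1d were each lost without any 1 of 4 libraries. Reads can be split between these copies, so the value of each is uncertain. Birc2, the inhibitor of apoptosis protein cIAP1, had -0.88 ± 0.22 (0.00780). Bcl2l14 had no count in any UPBIG library and 359 counts over the DOWN libraries, so it was at least 91.0-fold lower, taking a floor of 3 counts over the group. DOWN replicate 3 held 192 of those counts, and without it the bound was 55.2-fold. The UPSMALL libraries held 28 counts of Bcl2l14, so the gene passed the count filter through DOWN. The dendritic cell, T and NK cell and monocyte marker sums, given above, were also highest in DOWN. The part of such cells in the Bcl2l14 difference was not tested.

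Proliferation genes were looked at because Cdkn1a halts the cell cycle. Of 18, Cdk1 alone was called between UPBIG and DOWN, or 5.56% beside 17.5% of all genes. Cdk1 had a log2 fold change of 0.96 ± 0.26 (edgeR adjusted p = 0.0162, and 0.121 with library totals alone). It was 39.2, 23.5, 29.4 and 25.9 CPM in UPBIG and 11.6, 10.2, 12.0 and 26.9 in DOWN, where replicate 4 overlapped UPBIG, and the call was lost without UPBIG replicate 1, DOWN replicate 1 or DOWN replicate 3. The median log2 fold change of the 18 was 0.24 for UPBIG against DOWN (-0.09 with library totals alone), -0.40 for UPBIG against UPSMALL and 0.62 for UPSMALL against DOWN. In those last comparisons edgeR called 0 of 18 genes, beside 5.70% and 1.14% of all genes. By the sign of the fold change, 15 were lower and 3 higher in UPBIG than in UPSMALL. All 18 were higher in UPSMALL than in DOWN. At an unadjusted p under 0.05, 2 were lower in UPBIG than in UPSMALL and 9 were higher in UPSMALL than in DOWN. DESeq2 called 1 and 3 of them, and limma-voom 2 and 4.

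**Figure D5:**
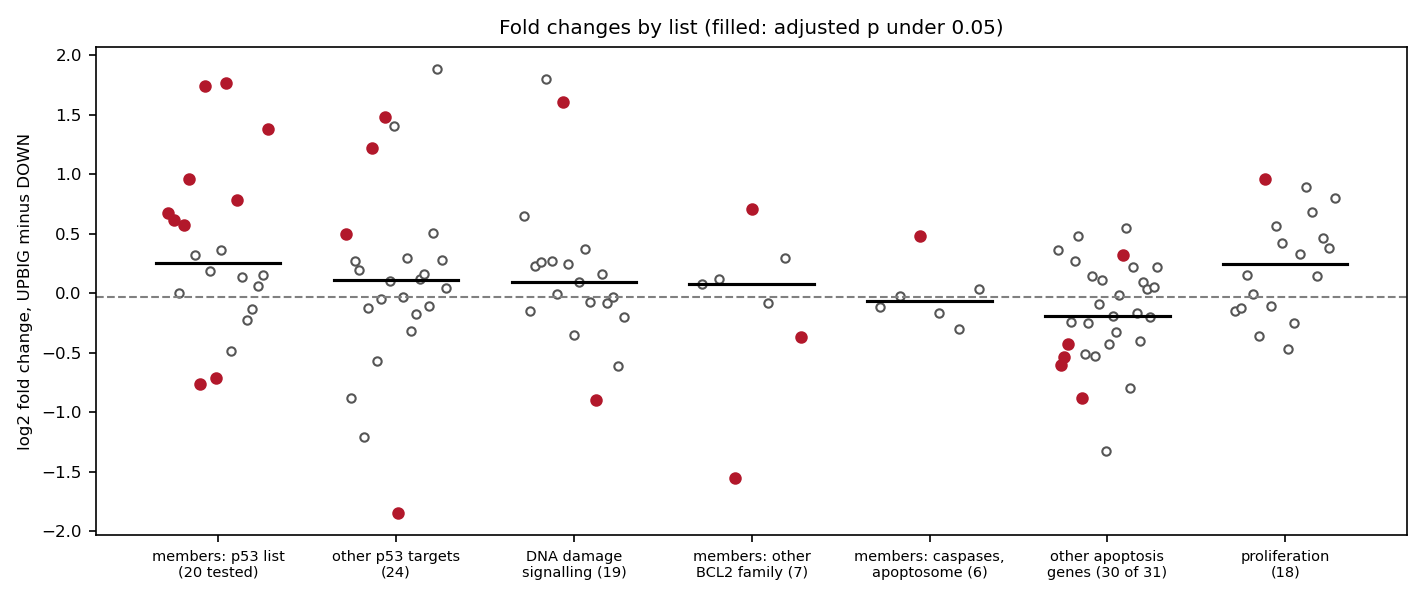
Log2 fold change of UPBIG against DOWN for each tested gene, by list, with bars at the list medians and a dashed line at the median of all tested genes (-0.03). The p53 list of 20 has a median of 0.25 (-0.07 with library totals alone) and the other apoptosis genes one of -0.20; Bcl2l14 is left out because all UPBIG libraries are at 0.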

How the data were processed

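Poly(A) RNA of lysed cells was turned into full-length cDNA and amplified with the SMART-Seq HT kit, per the labels' protocols. The deposited values are expected counts per gene, from reads handled by the authors with STAR, RSEM and mm10, per the submitters' processing notes. Their versions, the annotation and whether strand was used: not given in the sources used here. Overlapping genes on opposite strands therefore cannot be told apart. Of all values, 13.8% are not whole. They were rounded and filtered with filterByExpr (12625 genes kept). All 12 libraries were fitted together in edgeR 4.0.16 (R 4.3.3): quasi-likelihood F tests (robust) after TMM scaling, without a block, with Benjamini-Hochberg adjustment over all tested genes, calls at 0.05. SE was taken as log2 fold change over √F. CPM use TMM-scaled totals. Alternatives used limma 3.58.1 and DESeq2 1.42.0, other scalings and filters, a replicate block and leaving out each library. Symbols and exon lengths came from GENCODE vM21, and 26775 identifiers matched. Same-numbered libraries were checked for pairing and left unpaired. Promoters came from RefSeq. Scripts were tested on simulated data. Floors cover counting error only, since PCR reads are not independent molecules. Named genes were all members, plus at most 4 called genes with the smallest p per pathway list, direction and comparison, and Blmh; some genes of the rule are not reported here. Members and lists were chosen with earlier results of these data known.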

Additional observations from a re-analysis of the deposited data

Results flagged for a closer look

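For each of the 34 members and each group of 4 libraries, the highest and lowest library were compared with the rest by Dixon's gap test. Of 102 groups, 8 held a library that stood apart, and chance alone gives about 5% of groups. Trp53 in UPBIG replicate 4 was 22.4 CPM, with 19.1 to 19.6 in the others. Mdm2 in DOWN replicate 3 was 56.4 CPM, with 45.1 to 46.9 in the others. Cdkn1a in UPSMALL replicate 1 was 155 CPM, with 123 to 127 in the others. Pmaip1 in DOWN replicate 1 was 3.59 CPM, with 5.32 to 5.58 in the others. Rrm2b in DOWN replicate 4 was 7.96 CPM, with 4.71 to 5.20 in the others, and Apaf1 in the same library was 19.2 CPM, with 15.7 to 16.1. Eda2r, which had few counts, was 0.0999 CPM in UPSMALL replicate 2 and 0 in the others, and 0.577 CPM in DOWN replicate 2 with 0 to 0.0507 in the others.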

How the results depend on the processing

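Cdkn1a, Gdf15, Zmat3, Phlda3 and Fas between UPBIG and DOWN, and Zmat3 between UPSMALL and DOWN, were called under all 20 alternatives. With library totals alone, UPBIG against DOWN called 3755 genes (518 higher and 3237 lower, instead of 1140 and 1070), with 4 members higher; UPBIG against UPSMALL called 1622 (189 and 1433, instead of 406 and 314), with 1 member higher and 3 lower; UPSMALL against DOWN had 2 members higher, and the joint test called 3021 genes. Trp53 and Mdm2 then reversed sign against DOWN, to -0.25 and -0.13. UPSMALL against DOWN was the least stable comparison in number of genes called: 144 became 393 with DESeq2 (4 members higher), 226 with limma-voom (2 higher, 0 lower), 460 with no low-count filter (4 higher) and 275 with the replicate block (2 higher). The stricter filter gave 2 members higher and a fit of only the 8 libraries 0 lower. The cause of these changes was not tested. Leaving out 1 library gave, for UPBIG against DOWN, 1777 to 2421 genes with 8 to 10 members higher and 2 to 4 lower; for UPBIG against UPSMALL, 500 to 762 genes with 1 to 5 higher and 0 lower; for UPSMALL against DOWN, 58 to 179 genes with 1 to 2 higher and 0 to 1 lower; and for the joint test, 1388 to 1938 genes with 8 to 14 members. Casp9 and Apaf1 ranged from -0.33 to 0.013 and from -0.22 to 0.022 for UPBIG against DOWN and took the positive sign without UPBIG replicate 1. Correlations of deviations between same-numbered libraries were -0.03 to 0.15, with 6 of 12 over 0.1 (2 of 36 between different numbers), and 8 of 12 libraries correlated best with their own number. Since not every pair passed 0.1 and no label gives a shared source, the numbers were not taken to pair the samples, though they may. The block raised the genes called from 2210 to 2607 and from 720 to 1025 for UPBIG against DOWN and against UPSMALL, with the same member counts, took the joint test from 11 to 14 members, and let Cdkn1a pass between UPSMALL and DOWN (adjusted p 0.0184). Plk2, Bcl2 and Bbc3 had the widest errors, so small differences in them were not detectable here.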
